A study of Xenopus laevis with 3 samples.

Results

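The genes of amino acid breakdown and the urea cycle were examined in the liver of the African clawed frog, Xenopus laevis, in female animals. The group was defined by gene symbol: 52 genes were listed, and every probe set whose symbol matched one of them, after removal of the copy suffix, was taken with no filter on level. The annotation held 42 of the 52 genes as 51 gene copies, out of 11303 gene copies with a single symbol. Xenopus laevis is allotetraploid, and a gene can have a copy on a long chromosome (.L) and another on its short partner (.S). Of the 51 copies, 35 were .L and 16 were .S. The 10 genes with no matching probe set (nags, gls2, gpt2, kynu, afmid, pah, mat1a, gnmt, bckdha and mut) were not analysed here.

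There were 3 Affymetrix arrays, 1 for each group. Frogs received pregnenolone at 50 mg/kg, artemisinin at 200 mg/kg or the solvent DMSO, in which both compounds were dissolved, by injection into the body cavity on 2 consecutive days, and livers were taken 24 h after the second injection. The labels give 3 frogs for each compound, kept in water at 22 °C, and do not spell out the number of controls, the ages or the strain. The RNA of a group was pooled before labelling, so a value is the level of a pool, and differences between frogs within a group cannot be seen. The study sought target genes of xlCAR, the frog counterpart of a nuclear receptor that in mammals governs drug-metabolising enzymes. Pregnenolone is a precursor of the steroid hormones and artemisinin is an antimalarial drug. The doses differ, so the compounds are set side by side and not ranked.

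The liver is the main site where amino acids are stripped of nitrogen and their carbon skeletons are passed to glucose, ketone or energy metabolism. Aminotransferases and glutamate dehydrogenase collect the nitrogen as glutamate and ammonia, the urea cycle turns ammonia into urea, and glutamine synthetase binds the remainder. Adult Xenopus laevis in water excretes mostly ammonia, yet it keeps a complete urea cycle in the liver and uses it more when water is short. Several of the first enzymes of the single pathways, such as tryptophan dioxygenase and tyrosine aminotransferase, are known in rats as targets of glucocorticoids.

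Levels are in log2 units, as computed by robust multiarray averaging (RMA), and a difference is 1 array minus another on that scale. A copy was called higher or lower at 1.5-fold or more, a log2 difference of 0.585. With 1 array in each group there is no replicate error, and no test was made of any difference. Where a copy had several probe sets, the one highest on average over the 3 arrays stands for it. Over all gene copies with more than 1 probe set at or above the level of the median probe set (5.61), the probe sets of a copy differed with an SD of 0.275 for pregnenolone minus DMSO and 0.223 for artemisinin minus DMSO. That SD holds neither the spread of frogs nor that of arrays. Levels of different genes were not compared with each other.

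The tissue label was checked against hepatocyte markers. Of 19 copies of such markers, 18 lay at or above 5.61, and the median of the list was 13.04 with DMSO, 12.53 with pregnenolone and 13.09 with artemisinin. Copy by copy, the median difference from DMSO was -0.06 with pregnenolone and 0.04 with artemisinin. Within 1.5-fold of DMSO lay 15 of the 19 copies with pregnenolone and 17 with artemisinin. The array medians over all probe sets were 5.62, 5.61 and 5.62 in the same order. RMA makes the distributions of the arrays alike, so these medians are no check on the arrays. The ratio of the 3′ to the 5′ probe set of gapdh, a sign of RNA quality, was 1.40, 1.48 and 1.63 on the log2 scale, and that of ef1a was 1.09, 1.02 and 0.83. Digestive enzymes of the exocrine pancreas marked the DMSO array. Of 24 copies, 12 were lower on the pregnenolone array (50%, against 3.75% of all gene copies). These 12 ran from 5.31 to 11.39 with DMSO, from 3.16 to 6.39 with pregnenolone and from 2.85 to 6.15 with artemisinin.

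Among these genes, most copies called with pregnenolone were lower. Of the 51 copies, 12 were at least 1.5-fold lower than with DMSO (23.5%) and 2 at least 1.5-fold higher (3.92%). Over all 11303 gene copies the shares were 3.75% lower and 4.64% higher. All 12 lower members lay at or above the level of the median probe set, where 5.03% of all gene copies were lower and 6.22% higher. The median difference of the 51 members was 0.00, as it was for all gene copies, with 25 members below 0, 19 above and 7 at exactly 0. The lower members belonged to the urea cycle, the glutamate branch and the tryptophan, tyrosine, glycine and histidine pathways, and none came from the member copies of the methionine, proline or branched-chain groups. In the methionine group cbs.L fell just short of 1.5-fold (-0.56), and 2 of the 3 proline copies had the same value on every array.

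**Figure D1:**
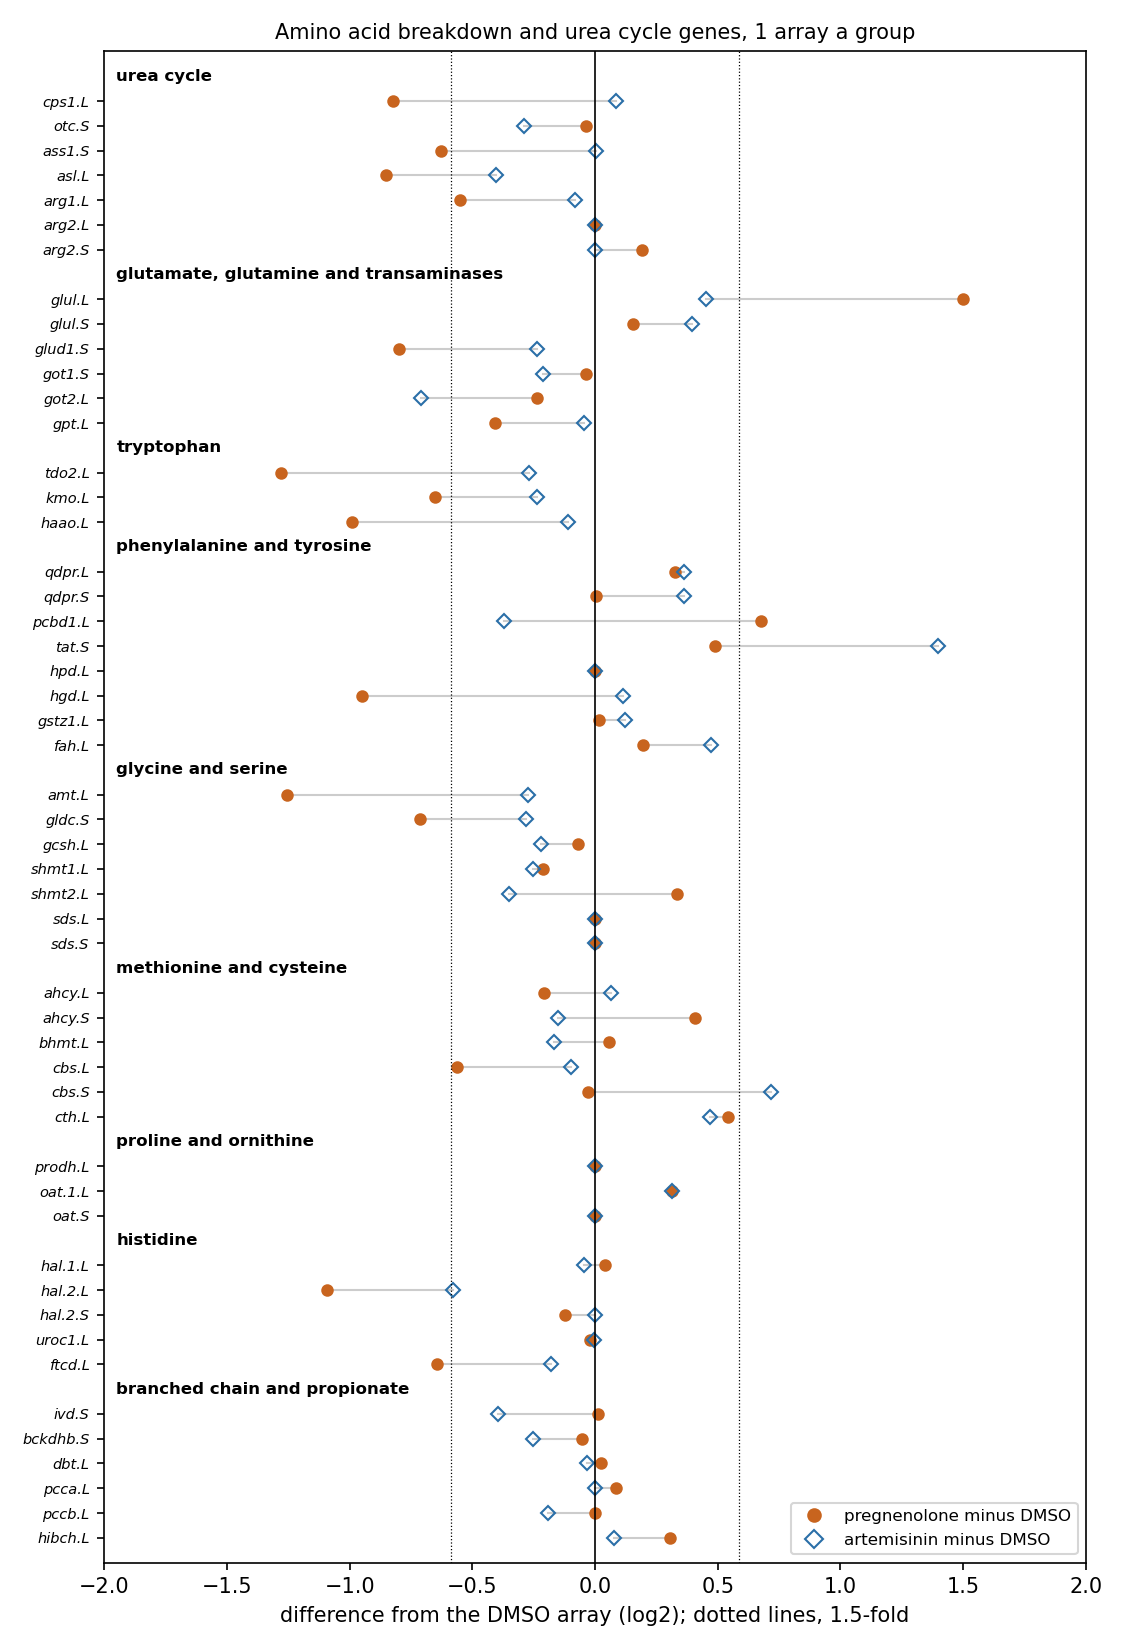
Difference from the DMSO array (log2, x axis) for each of the 51 gene copies (y axis), grouped by pathway; filled circles are pregnenolone minus DMSO, open diamonds artemisinin minus DMSO, and dotted lines mark 1.5-fold. Of the tryptophan members 3 of 3 circles lie left of the lower line, while 48 of the 51 diamonds lie between the lines.

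Artemisinin gave 2 higher members (3.92%) and 1 lower member (1.96%), against 2.35% and 2.26% over all gene copies. These shares are near the background. The median difference was -0.03 for the members and 0.00 for all gene copies. Both comparisons use the same DMSO array, so an error of that array enters both. Between the 2 treated arrays, 8 members were higher with artemisinin (15.7%, against 3.89% of all gene copies) and 3 lower (5.88%, against 4.86%). That comparison does not use the DMSO array, but 6 of the 8 are members already counted as lower with pregnenolone, whose array it shares. At 2-fold, pregnenolone gave 3 lower members (tdo2.L, amt.L and hal.2.L) and 1 higher (glul.L), against 1.06% and 1.44% of all gene copies. Artemisinin gave 1 higher at 2-fold (tat.S) and 0 lower, against 0.947% and 0.557%. Between the treated arrays 2 members were higher with artemisinin at 2-fold (tdo2.L and hgd.L) and 2 lower (glul.L and pcbd1.L), against 1.4% and 1.23%. In all, 18 of the 51 copies differed by at least 1.5-fold between some pair of arrays. The shares of all gene copies given above are each for 1 comparison, so they are no background for a count over any pair. No such share was taken over all gene copies, and no conclusion is drawn from the 18.

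**Figure D2:**
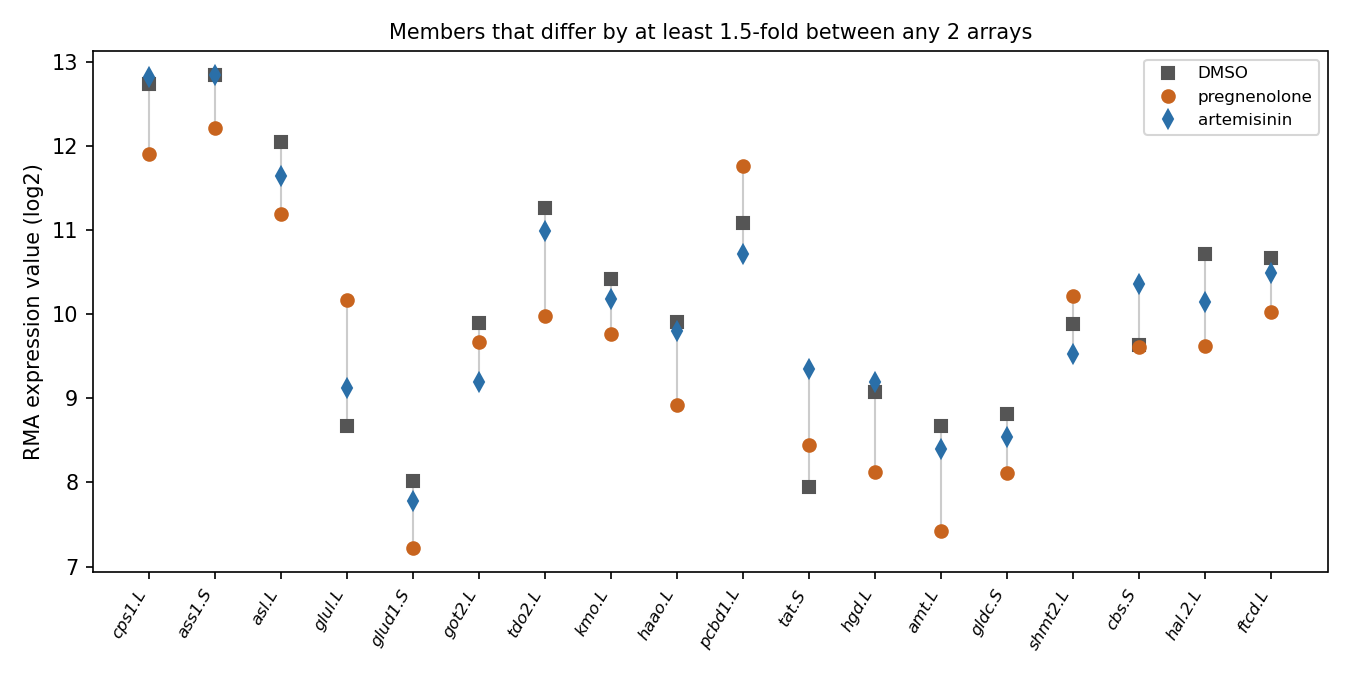
RMA expression value (log2, y axis) on the DMSO, pregnenolone and artemisinin arrays, 1 point an array, for the 18 members (x axis) that differ by at least 1.5-fold between any pair of arrays. For 12 of them the pregnenolone point lies at least 1.5-fold below the DMSO point, and for glul.L and pcbd1.L it lies at least 1.5-fold above.

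In the urea cycle, 3 of the 7 measured copies were lower with pregnenolone and none higher, against 3.75% and 4.64% of all gene copies. With artemisinin all 7 lay within 1.5-fold of DMSO. Over all gene copies 2.35% were higher and 2.26% lower with artemisinin, shares at which 7 copies say little. The entry enzyme carbamoyl phosphate synthetase, cps1.L (Entrez gene 733340), stood at 12.73 with DMSO, 11.91 with pregnenolone and 12.82 with artemisinin. The pregnenolone array was the low one, at 1.77-fold below DMSO (log2 difference -0.82), and the other arrays differed by 0.09. Ornithine transcarbamylase, otc.S (373620), which joins carbamoyl phosphate to ornithine, was at 12.36, 12.33 and 12.07 in the same order of arrays. It was the member of the core cycle that differed least with pregnenolone (-0.04), and with artemisinin it was at -0.29.

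Of the steps that follow, ass1.S and asl.L were lower with pregnenolone. Argininosuccinate synthase, ass1.S (380488), was at 12.84, 12.21 and 12.84, or 1.55-fold lower with pregnenolone (-0.63) and level with DMSO on the artemisinin array (0.00). Argininosuccinate lyase, asl.L (447450), was at 12.04, 11.19 and 11.64, which is 1.81-fold lower with pregnenolone (-0.85) and -0.41 with artemisinin. Its second probe set gave -0.94 and -0.46, so both probe sets of the gene placed the 3 arrays in the same order. Liver arginase, arg1.L (380109), which releases urea, was at 12.40, 11.85 and 12.32, a difference of -0.55 with pregnenolone that stayed just inside 1.5-fold, and -0.08 with artemisinin. The mitochondrial arginase probe sets lay below the median level: arg2.L was listed at 4.95 on every array, and arg2.S was at 3.80, 3.99 and 3.80.

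Of the 6 copies that handle glutamate and glutamine, 1 was higher with pregnenolone, 1 lower and 4 within 1.5-fold. Over all gene copies 4.64% were higher and 3.75% lower, beside which 1 copy in 6 says little. Glutamine synthetase, glul.L (398556), which fixes ammonia in glutamine, was at 8.68 with DMSO, 10.17 with pregnenolone and 9.13 with artemisinin. The pregnenolone array was 2.82-fold higher than DMSO (1.5), the highest difference among the 51 members, and the artemisinin array was 0.45 higher. Its other copy, glul.S, differed by only 0.16 with pregnenolone. Glutamate dehydrogenase, glud1.S (446858), which frees ammonia from glutamate, was at 8.02, 7.22 and 7.78, or 1.74-fold lower with pregnenolone (-0.80) and -0.24 with artemisinin. The aminotransferases stayed within 1.5-fold of DMSO with pregnenolone. Alanine aminotransferase, gpt.L, was at 9.90, 9.49 and 9.85, and the cytosolic aspartate aminotransferase got1.S at 8.87, 8.84 and 8.66. The mitochondrial aspartate aminotransferase got2.L (379947) was at 9.90, 9.67 and 9.19. It was the only one of the 51 copies past 1.5-fold below DMSO with artemisinin, at 1.64-fold (-0.71), with -0.24 for pregnenolone.

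Of tryptophan breakdown the group held tdo2, kmo and haao, and all 3 copies were lower with pregnenolone, with differences from -1.28 to -0.65. Over all gene copies 3.75% were lower. Other tryptophan genes, outside the group, differed in both directions and are given with the wider list. Tryptophan dioxygenase, tdo2.L (495495), opens the indole ring and commits tryptophan to breakdown. It stood at 11.26, 9.98 and 10.99, and its pregnenolone value was 2.43-fold below DMSO (-1.28), the lowest difference among the members. Kynurenine monooxygenase, kmo.L (734866), a later step, was at 10.41, 9.76 and 10.18, or 1.57-fold lower (-0.65). Hydroxyanthranilate dioxygenase, haao.L (398998), which leads on towards quinolinate and NAD, was at 9.91, 8.92 and 9.80, or 1.99-fold lower (-0.99). On the artemisinin array the same 3 copies lay between -0.27 and -0.11 of DMSO, so all 3 were slightly below DMSO and above the pregnenolone value.

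Past 1.5-fold, phenylalanine and tyrosine breakdown held no common direction, with 1 of 8 copies lower and 1 higher with pregnenolone and 1 higher with artemisinin. Over all gene copies the shares were 3.75%, 4.64% and 2.35%, beside which 1 copy in 8 says little. At any size of difference, 6 of the 8 copies lay above DMSO and 1 below, with pregnenolone and with artemisinin alike. Of the 7478 gene copies at or above the median level, where 7 of the 8 lay, 3428 were above DMSO with pregnenolone and 3013 with artemisinin. Tyrosine aminotransferase, tat.S (443707), the first step for tyrosine, was at 7.95, 8.44 and 9.35. Both treated arrays were above DMSO, by 0.49 with pregnenolone and by 1.40 (2.63-fold) with artemisinin, the highest artemisinin difference among the members. Homogentisate dioxygenase, hgd.L (447328), which opens the aromatic ring, was at 9.08, 8.13 and 9.19. It was 1.93-fold lower with pregnenolone (-0.95) and 0.11 above DMSO with artemisinin, and the difference of 1.06 between the treated arrays was the widest for any member on the side of artemisinin. The last steps did not follow hgd.L: the isomerase gstz1.L was at 9.99, 10.01 and 10.12, and fumarylacetoacetate hydrolase, fah.L, at 9.22, 9.42 and 9.70. The dioxygenase hpd.L, which lies between tat and hgd in the pathway, was listed at 2.68 on every array, so its probe set gave no information on the step.

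The pterin cofactor of phenylalanine hydroxylase is recycled by pcbd1 and qdpr. The dehydratase gene pcbd1.L (397951), whose product in mammals also binds the transcription factor HNF1, was at 11.08, 11.76 and 10.71. It was 1.60-fold higher with pregnenolone (0.68) and -0.37 with artemisinin, so that the treated arrays lay on either side of DMSO and were 2.07-fold apart. The reductase copies qdpr.L, at 9.85, 10.18 and 10.22, and qdpr.S, at 8.57, 8.58 and 8.93, stayed within 1.5-fold.

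The glycine cleavage system splits glycine in mitochondria into ammonia, carbon dioxide and a folate-bound carbon. Of its 3 specific subunits, 2 were lower with pregnenolone, against 3.75% of all gene copies. The aminomethyltransferase amt.L (779328) was at 8.67, 7.42 and 8.40, or 2.39-fold lower (-1.26). The decarboxylase gldc.S (379833) was at 8.82, 8.11 and 8.54, or 1.64-fold lower (-0.71). The carrier protein gcsh.L was at 10.37, 10.30 and 10.15, a difference of -0.07, so the subunits did not share 1 value. With artemisinin the 3 subunits lay between -0.28 and -0.22. The serine hydroxymethyltransferases, which interconvert serine and glycine, were within 1.5-fold of DMSO: the cytosolic shmt1.L was at 9.64, 9.43 and 9.39, and the mitochondrial shmt2.L (447193) at 9.88, 10.21 and 9.53. The shmt2.L values of the treated arrays were 1.61-fold apart, lower with artemisinin (-0.68). Both serine dehydratase copies, sds.L (2.59) and sds.S (4.75), were listed at a single value on all arrays.

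In histidine breakdown, histidine ammonia-lyase, the entry step, was read by 3 probe sets of different copies. The copy hal.2.L (100125662) was at 10.72, 9.63 and 10.14, or 2.13-fold lower with pregnenolone (-1.09) and -0.58 with artemisinin, which fell just short of 1.5-fold. The copies hal.1.L, at 4.73, 4.77 and 4.68, and hal.2.S, at 4.38, 4.26 and 4.38, lay below the median level. Urocanate hydratase, uroc1.L, was at 6.25, 6.23 and 6.25. The last enzyme, ftcd.L (379483), which passes a one-carbon unit to folate, was at 10.67, 10.03 and 10.49, or 1.56-fold lower with pregnenolone (-0.64) and -0.18 with artemisinin.

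The methionine and cysteine group differed at single copies only. None of its 6 copies passed 1.5-fold with pregnenolone, and 1 was higher with artemisinin. Over all gene copies 3.75% were lower and 4.64% higher with pregnenolone, and 2.35% higher with artemisinin. Beside such shares, counts in 6 copies say little. Cystathionine beta-synthase, cbs.S (446655), which sends homocysteine to cysteine, was at 9.64, 9.61 and 10.35, or 1.64-fold higher with artemisinin (0.72). Its other copy, cbs.L (380308), was at 10.46, 9.90 and 10.36, with -0.56 for pregnenolone, just inside 1.5-fold, and -0.10 for artemisinin. Cystathionine gamma-lyase, cth.L, the next step, was at 9.21, 9.75 and 9.68, with both treated arrays above DMSO by 0.54 and 0.47. The homocysteine methyltransferase bhmt.L was at 10.31, 10.37 and 10.15.

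The 6 member copies of branched-chain amino acid and propionate breakdown stayed within 1.5-fold of DMSO on both treated arrays. Over all gene copies, 3.75% were lower and 4.64% higher with pregnenolone, and 2.26% lower and 2.35% higher with artemisinin. Beside such shares, 6 copies within 1.5-fold say little. With pregnenolone they ran from -0.05 to 0.30, and with artemisinin from -0.40 to 0.08. Isovaleryl-CoA dehydrogenase, ivd.S, for leucine, was at 7.66, 7.68 and 7.27. The subunits of the branched-chain dehydrogenase were at 9.71, 9.66 and 9.45 for bckdhb.S and at 8.42, 8.44 and 8.39 for dbt.L. The propionyl-CoA carboxylase subunit pccb.L was at 9.40, 9.40 and 9.21, whereas pcca.L, at 3.89, 3.98 and 3.89, lay below the median level. The valine enzyme hibch.L was at 6.74, 7.05 and 6.82. The 3 member copies of proline and ornithine breakdown stayed within 1.5-fold, which says as little. Of these, prodh.L was listed at 4.51 and oat.S at 6.84 on every array, and oat.1.L was at 5.15, 5.47 and 5.47.

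Identical values need a reading of their own. Of the 51 members, 6 had the same value on all 3 arrays to every digit given (arg2.L, hpd.L, sds.L, sds.S, prodh.L and oat.S), and so had 14.9% of all gene copies. The probe sets of 5 of these 6 lay below the median level, where 10 of the 51 members were found. RMA takes the array effects as medians over probes, so with 3 arrays a difference of exactly 0 is a frequent output and does not show that the level was equal.

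Where both copies of a gene were measured, they did not always give 1 answer. There were 7 such pairs, 4 of them with both copies at or above the median level. With pregnenolone, the copies of 2 of these 4 were at least 1.5-fold apart in their difference from DMSO, against 11.3% of 1171 pairs over all genes. The gap was 1.34 for glul, since glul.S (444294), at 9.94, 10.09 and 10.33, differed by only 0.16. For ahcy, the hydrolase that removes adenosine from homocysteine, ahcy.L was at 12.92, 12.71 and 12.99 and ahcy.S at 11.36, 11.77 and 11.21, so one copy was slightly below DMSO (-0.21) and the other above (0.41). With artemisinin only the cbs pair was that far apart (-0.81 for .L less .S), or 1 of 4 against 6.23% of all pairs. Between the treated arrays 2 of 4 pairs were, glul and ahcy, against 12% of all pairs. Probes of one copy may bind the other, so which copy a value belongs to is uncertain.

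**Figure D3:**
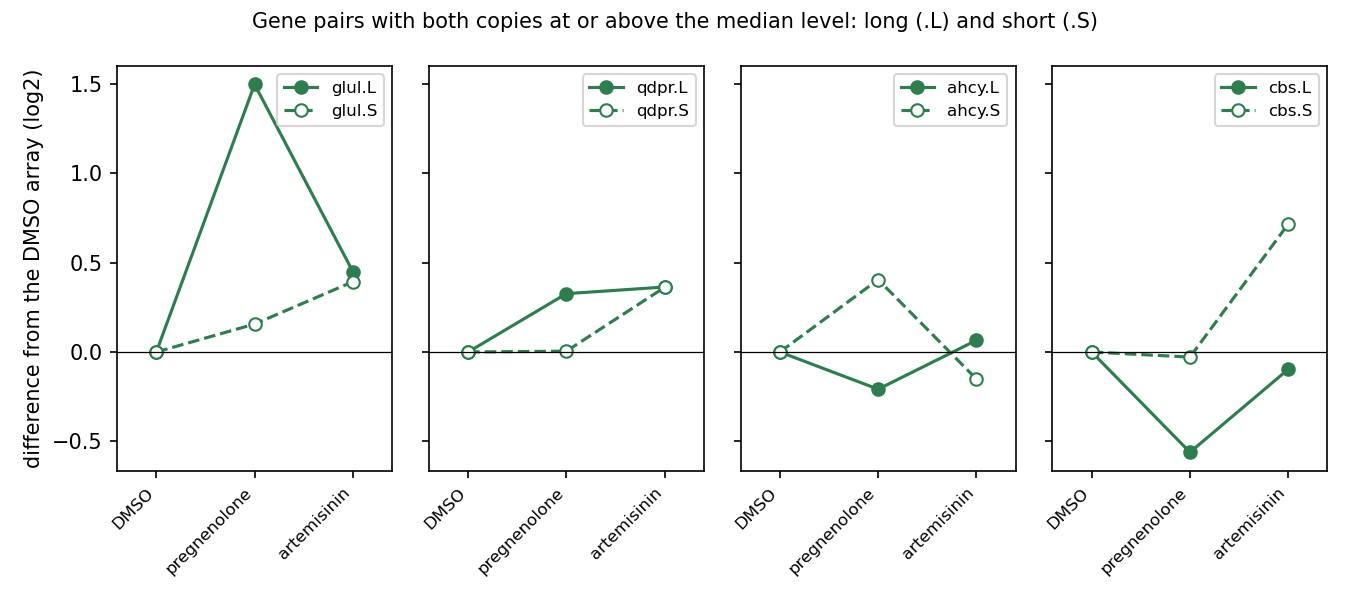
Difference from the DMSO array (log2, y axis) on each array (x axis, 1 point an array) for the 4 genes whose .L copy (filled, solid line) and .S copy (open, dashed line) both lie at or above the median level. With pregnenolone glul.L stands at 1.5 and glul.S at 0.16, and with artemisinin cbs.S stands at 0.72 and cbs.L at -0.10.

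A wider list of 63 amino acid genes outside the group was measured at 57 copies. With pregnenolone 10 were higher (17.5%) and 5 lower (8.77%), and with artemisinin 3 were higher (5.26%) and 2 lower (3.51%), against the shares over all gene copies given above. The 10 higher with pregnenolone were mat2a.L, pycr1.L, tdh.L, odc1.L, kyat3.L, aldh6a1.L, gamt.S, aadat.S, gamt.L and aldh18a1.L. Of these, gamt.S lay below the median level. The 5 lower were aldh4a1.L, hibadh.L, ido1.L, gcat.S and gcdh.L, and with artemisinin bckdk.S, acmsd.S and mat2a.L were higher and ido1.L and amdhd1.L lower. In this list, unlike the members, more copies were higher than lower with pregnenolone, and the difference between the lists was not tested. The highest was mat2a.L, at 9.02, 10.89 and 9.65 (1.87 with pregnenolone), the form of methionine adenosyltransferase that in mammals prevails outside the adult liver. On the proline route, pycr1.L, which makes proline, was at 5.87, 7.37 and 6.25 (1.5), and aldh4a1.L, which completes its breakdown to glutamate, at 9.41, 7.93 and 9.38 (-1.48). The valine gene hibadh.L was at 7.76, 6.24 and 7.37 (-1.52), while its copy hibadh.S differed by 0.15. On the next step of the valine route, aldh6a1.L differed by 0.77 with pregnenolone, but its copy aldh6a1.S by only 0.01.

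The remaining copies named from the wider list were tryptophan, threonine, ornithine and branched-chain genes. The tryptophan-degrading ido1.L, which acts mainly outside hepatocytes in mammals, was at 7.22, 6.08 and 6.53, and 2 aminotransferase genes that act on kynurenine were above DMSO with pregnenolone, kyat3.L by 0.78 and aadat.S by 0.75. Threonine dehydrogenase, tdh.L, was at 6.57, 7.43 and 6.42. Ornithine decarboxylase, odc1.L, the entry to polyamines, was at 10.14, 10.94 and 10.46, above DMSO by 0.80 with pregnenolone. The kinase bckdk.S, which switches off the branched-chain dehydrogenase, was at 6.52, 7.06 and 7.53, the highest of the list with artemisinin (1.01). Named after their values were seen, dld.S, the shared subunit of glycine cleavage, was at 9.49, 9.52 and 9.43, and amdhd1.L, the histidine step between uroc1 and ftcd, at 7.52, 7.03 and 6.93. Of the copies named from the wider list, mat2a.L, odc1.L and dld.S were read by probe sets of suffix _a_at and aldh4a1.L by one of suffix _s_at. Which transcripts or genes share their probes was not examined. Other probe sets of the listed copies are not given.

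Cells switch on the genes of the amino acid response when amino acids run short. Of 16 such genes listed, 12 were measured, at 15 copies, and asns, trib3, chac1 and slc7a11 were not. The copies phgdh.S and psat1.L are also in the wider list, and cebpb.L among the regulators below. With pregnenolone 3 of the 15 copies were higher (20%) and 1 lower (6.67%), against 4.64% and 3.75% of all gene copies. The median was 0.36, with 12 of the 15 above 0, beside 0.00 and 4404 of 11303 for all gene copies. Of those 11303, 2762 were at exactly 0, and none of the 15 was. At or above the median level, where 13 of the 15 lay, 3428 of 7478 gene copies were above 0. The amino acid carrier chain slc3a2.S was at 9.88, 10.74 and 10.33, slc3a2.L at 9.08, 9.84 and 9.47, and sesn2.L at 5.48, 6.14 and 5.46. Both copies of slc3a2 thus count among the 3 higher, while the other sesn2 copy, sesn2.S, differed by -0.19 with pregnenolone. The regulator atf4.L was at 11.88, 12.46 and 11.95, and nupr1.L, the lower one, at 13.35, 12.44 and 12.59. With artemisinin the median was 0.07, with 1 copy higher, atf3.L (6.52, 6.88 and 7.68), and 1 lower, nupr1.L (-0.76), against 2.35% and 2.26% of all gene copies. Of 14 copies of liver regulators, 2 were higher with pregnenolone, the pregnane X receptor copy nr1i2.S (1.23) and ppara.L (0.78), against 4.64% of all gene copies. Their other copies differed by -0.12 (nr1i2.L, below the median level) and 0.03 (ppara.S) with pregnenolone. With artemisinin 0 were higher, against 2.35%, a share at which 14 copies say little. The glucocorticoid receptor copies were at 8.34, 8.21 and 8.28 for nr3c1.L and at 8.07, 7.76 and 7.72 for nr3c1.S.

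**Figure D4:**
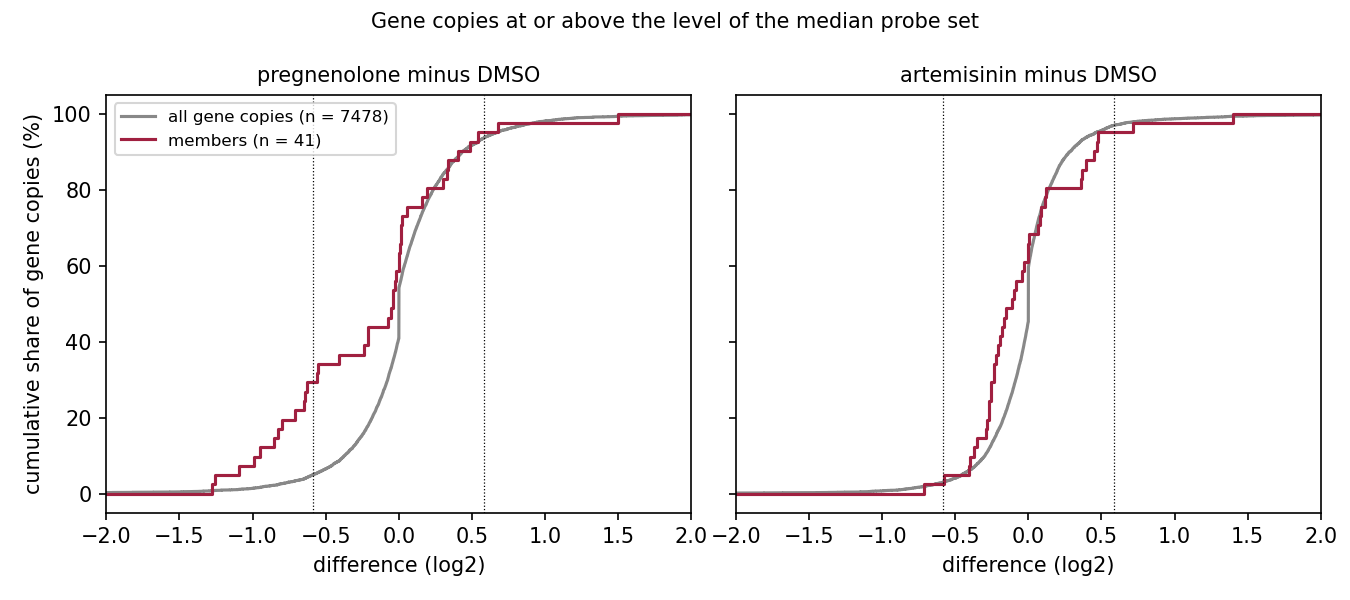
Cumulative share (%, y axis) of gene copies by difference from the DMSO array (log2, x axis) for the 41 members and the 7478 gene copies at or above the median level; left, pregnenolone; right, artemisinin; dotted lines mark 1.5-fold. On the left the member line stands at 29.3% at the lower dotted line and the line of all copies at 5.03%, while above 0 the lines run close together.

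Markers of other cell types also differed between the arrays. Over all gene copies, 3.75% were lower and 4.64% higher with pregnenolone, and 2.26% lower and 2.35% higher with artemisinin. Beside such shares, 1 copy in a short list says little. The pancreatic markers were low on both treated arrays, as given above. The 12 members picked as lower with pregnenolone lay between -0.58 and 0.11 of DMSO with artemisinin, with a median of -0.24. Of these 12, 9 lay below DMSO with artemisinin, beside 27 of the 51 members and 4386 of 11303 gene copies. The 12 were picked by a DMSO value above the pregnenolone value. The same DMSO array enters the artemisinin difference, so a lean below 0 is partly built in and no conclusion is drawn from it. The list of smooth muscle, biliary, endothelial and fibroblast markers had 9 of 24 copies lower (37.5%) on each treated array. Leukocyte markers had a median of -0.28 with pregnenolone (1 of 10 lower, 10%, lcp1.S) and 0.00 with artemisinin. Erythrocyte markers had 2 of 17 lower with pregnenolone (11.8%, hba3.L and hbz.L) and 6 of 17 lower with artemisinin (35.3%). Skeletal muscle markers had 1 of 8 copies higher with pregnenolone (12.5%), acta1.S, at 4.40, 8.11 and 4.24. The oocyte and ovary list (7 copies) and the kidney list (2 copies) had none past 1.5-fold on either treated array. Of the hepatocyte markers themselves, 3 of 19 were lower (15.8%, ttr.L, serpinc1.L and tf.L) and 1 higher (5.26%, apoa1.L) with pregnenolone. With artemisinin 2 were higher (10.5%, ttr.L and fga.S). The part of these markers in the members' differences was not tested, and in pooled tissue fewer cells of a type and less RNA per cell cannot be told apart.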

How the data were processed

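Liver RNA of 3 groups was measured on 1 Affymetrix array each. The deposited values are log2 expression values made by the authors with RMA, per the submitters' processing notes; the version and the log base are not given in the sources used here, and base 2 follows from how RMA is defined and from the span of the values. RMA makes the distributions of the arrays alike, which removes any difference in total message. The values were used as deposited. An array gives no count or depth, and the number of arrays limits the precision.

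Of 32635 probe sets, 96 were controls, 15495 had 1 gene symbol in the platform annotation, 279 several and 16765 none. All 51 members matched a RefSeq gene table (Xenopus_laevis_v10.1) by Entrez gene, with 0 symbols altered. That table gives a build and the array none, so no positions are given, and no sequences were used here. Differences were taken between arrays, with 1 probe set per copy (highest mean of the 3 arrays) and a threshold of 1.5-fold. The SD between probe sets of a copy was pooled over 1287 copies. No test was made. Named genes were all members past 1.5-fold in any of 3 comparisons, the urea cycle, their other copies, and the 8 copies of the wider list farthest from DMSO; others were named after their values were seen. The members and lists were chosen with earlier results of these data known. The alternatives were other fold thresholds, level filters, probe set rules, median centring, quantile normalization and a loess trend (span 0.3, statsmodels). Steps were tested on simulated data in Python 3.11.15 with pandas 2.3.3, numpy 2.4.6 and statsmodels 0.14.6.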

Additional observations from a re-analysis of the deposited data

How the results depend on the processing

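No value has a replicate error, and the number of arrays limits every statement. Counts are of members at least 1.5-fold from the reference array unless another threshold is given. With pregnenolone against DMSO, 12 lower members became 3 at 2-fold and 15 at a looser threshold, a log2 difference of 0.32. The 2 higher ones became 1 at 2-fold and 7 at the looser threshold. Without probe sets of suffix _a_at, _s_at or _x_at they became 1, which leaves out pcbd1.L (_a_at). Which transcripts or genes share the probes of such sets was not examined. With artemisinin against DMSO, the 2 higher members became 1 at 2-fold and 8 at the looser one. The 1 lower member became 0 at 2-fold, 6 at the looser one and 0 without those suffixes, which leaves out got2.L (_a_at). With artemisinin against pregnenolone, the 8 higher became 2 at 2-fold and 18 at the looser one, and the 3 lower became 6 at the looser one. At the looser threshold, 9.09% of all gene copies were lower and 11.2% higher with pregnenolone. With artemisinin 7.04% were lower and 6.94% higher. Between the treated arrays 9.11% were higher with artemisinin and 11.9% lower. The median of that comparison, 0.00, was 0.24 at or above the median level and 0.28 at a level of at least 8, a filter chosen after seeing the data; these filters leave 41 and 36 of the 51 members. Of the named values past 1.5-fold, 1 moved inside it, ass1.S with pregnenolone after quantile normalization (-0.58). No direction was reversed. Most of these settings could not move a value, so this is no measure of stability. A level filter leaves a value unchanged, and a probe set rule altered only asl.L, the named copy with several probe sets. The normalizations could alter every value, but they started from arrays whose distributions RMA had already made alike. No paired analysis was possible because each group has 1 array and no result comes from a test.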
